A study of Mus musculus with 21 samples.

Results

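The genes described here are 10 components and response genes of the TGF-beta pathway, taken by name from a table of 23415 gene rows: TGFB1, TGFBR1, TGFBR2, SMAD2, SMAD3, SMAD7, SKI, SKIL, TGFBI and ITGAE. Transforming growth factor beta binds a type II receptor, which phosphorylates a type I receptor, and this receptor phosphorylates SMAD2 and SMAD3, which enter the nucleus with SMAD4 and regulate target genes. SMAD7, SKI and SKIL hold the signal back, SMAD7 at the receptor and SKI and SKIL at the Smad complexes on DNA. In CD4 T cells, TGF-beta with IL-6 is known to direct naive cells to the Th17 fate, which makes IL-17, and TGF-beta without IL-6 to the regulatory fate.

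The measured RNA came from CD4 T cells of mice heterozygous for a reporter allele of the IL-23 receptor gene (Il23r wt/eGFP), a genotype that all groups shared. The allele makes eGFP from the Il23r locus in place of a working receptor. GFPpos cells thus transcribe the locus, and every cell has at most a single working copy of Il23r. Naive cells (low CD44, high CD62L, negative for CD25) from spleen and lymph nodes were stimulated for 5 days by plate-bound antibodies to CD3 and CD28, then sorted by eGFP. The cultures were TGFb+IL-6 (human TGF-b at 2 ng/ml, IL-6 at 25 ng/ml), IL-1b+IL-6+IL-23 (20 ng/ml of IL-1b and of IL-23, 25 ng/ml of IL-6), IL-12+IL-21 (both at 20 ng/ml) and IL-12 (20 ng/ml). The first 3 were sorted into GFPpos and GFPneg cells and the culture with IL-12 alone is represented by GFPneg cells, which gives 7 groups. The comparisons ask how the pathway's transcripts differ between a culture that received TGF-b and cultures that did not, and between reporter-positive and reporter-negative cells of a culture.

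Values are TPM, a gene's share of all transcripts in its library after scaling for transcript length, so levels of different genes can be set side by side. Of 21 libraries, 16 had at least 7000 genes at a TPM of at least 1 and were used: 1 of GFPpos TGFb+IL-6, 2 of GFPneg TGFb+IL-6, 3 of GFPpos IL-1b+IL-6+IL-23, 3 of GFPneg IL-1b+IL-6+IL-23, 3 of GFPpos IL-12+IL-21, 2 of GFPneg IL-12+IL-21 and 2 of GFPneg IL-12. The 3 libraries with TGF-b had 7522 to 8715 such genes and the other 13 had 7912 to 9248. Ribosomal protein genes took 39.8% to 44.4% of the TPM with TGF-b and 33.2% to 41.3% without it, and the part of this difference in any result below was not tested. All 7 CD4 T cell markers reached a TPM of 1, with sums of 1449 to 1987 TPM with TGF-b and 1382 to 2526 TPM without. Markers of B cells summed to 0 to 0.85 TPM with TGF-b and 0 to 0.94 TPM without, and those of stroma to 0 to 0.08 and 0 to 0.23 TPM. The 6 myeloid markers summed to 0.77 to 1.86 TPM with TGF-b and 0 to 2.52 TPM without, with LYZ2, CSF1R, ITGAX and FLT3 listed at 0 in all 3 libraries with TGF-b. CD68, at most 2.52 TPM, made up nearly all of the myeloid sum. The 4 markers of CD8 T and natural killer cells summed to 6.15 to 17.5 TPM with TGF-b and 4.99 to 17.4 TPM without, with NCR1 and KLRB1C listed at 0 in all 16 libraries. CD8B1, at 4.89 to 17.5 TPM, made up nearly all of this sum, and CD8A was at most 0.29 TPM.

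TGFBI and SKIL were the members that set the used TGFb+IL-6 libraries apart. In all 3 used libraries with TGF-b both lay above all 13 used libraries without it, an order found in 2.88% of all tested genes. No culture differs from TGFb+IL-6 by TGF-b alone. In every comparison between these cultures, TGF-b and the other cytokines that differ cannot be told apart. SMAD3 was higher in TGFb+IL-6 than in IL-12 cultures and lay higher in GFPpos than in GFPneg libraries of each culture without passing the test there, while TGFBR2, SMAD2 and SKI did not pass the test in any comparison. TGFB1, TGFBR1, SMAD7 and ITGAE were at or near the lower end of what the libraries measured. To be tested, a gene had to reach 1 TPM in 3 or more libraries, which was so for TGFBR2, SMAD2, SMAD3, SKI, SKIL and TGFBI, so 6 of the 10 genes were tested. In limma's F-test for any difference among the 7 groups, with Benjamini-Hochberg adjustment over 9592 genes and a threshold of 0.05, 3 of these 6 were called, TGFBI (adjusted p = 1.53e-08), SMAD3 (adjusted p = 0.00323) and SKIL (adjusted p = 0.0106). The same test called 24.9% of all genes. TGFBI reached 1 TPM in the 3 TGFb+IL-6 libraries alone, so it was tested only through the cultures where it was high, and nothing is read from the count of 3. The F-test did not call SKI (adjusted p = 0.179), TGFBR2 (adjusted p = 0.463) or SMAD2 (adjusted p = 0.497). SKIL was no longer called without GFPneg TGFb+IL-6 replicate 2 (adjusted p = 0.0533).

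**Figure D1:**
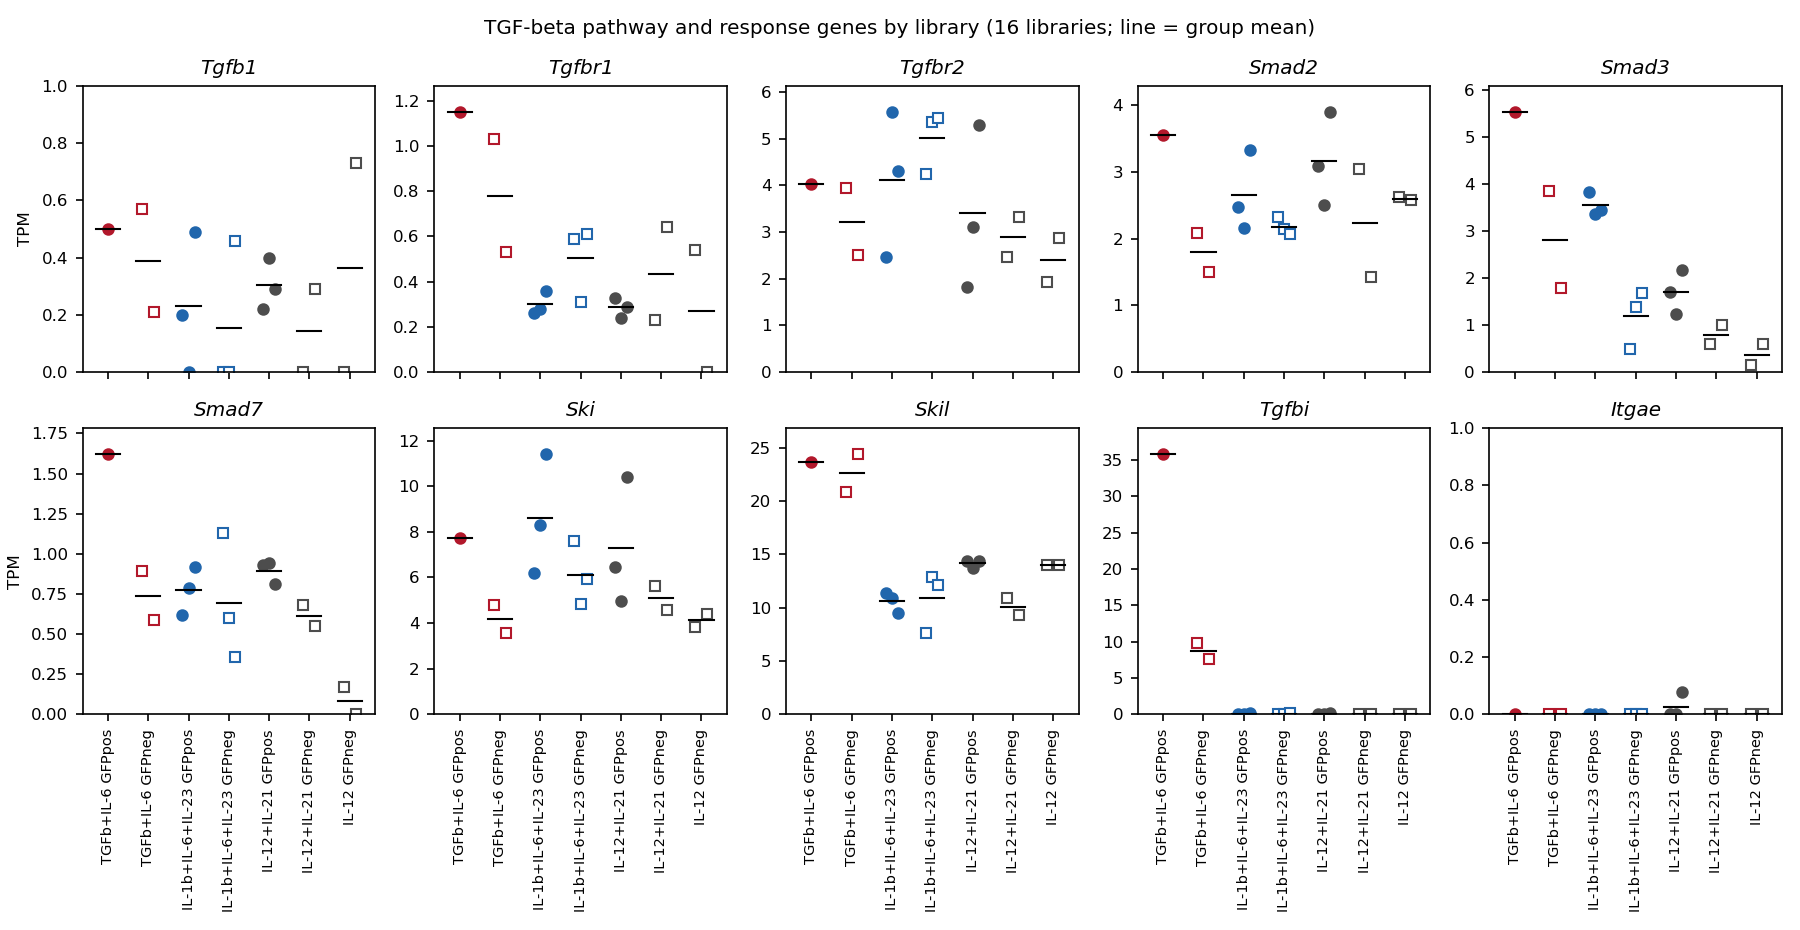
Level of each of the 10 genes in TPM (linear axis, own scale for each gene) in each of the 16 libraries, by group; circles are GFPpos, squares GFPneg, and the short line is the group mean. TGFBI is at 7.58 to 35.8 TPM in the 3 TGFb+IL-6 libraries and at most 0.25 TPM elsewhere, and SKIL is at 20.9 to 24.4 TPM against at most 14.4 TPM.

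TGFB1, which encodes the ligand TGF-beta 1, was listed at under 1 TPM in all libraries, and low expression and a failed estimate cannot be told apart there. It was at 0.5 TPM in the GFPpos TGFb+IL-6 library and at 0.57 and 0.21 TPM in GFPneg TGFb+IL-6 cells, against 0 to 0.73 TPM in the 13 libraries without added TGF-b, 5 of which listed it at 0. The levels overlap fully between the cultures.

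The receptors differed in level, the type II receptor TGFBR2 being the more abundant of the pair. TGFBR2 was at 4.03 TPM in GFPpos TGFb+IL-6 cells and at 3.94 and 2.5 TPM in GFPneg TGFb+IL-6 cells, against 1.82 to 5.57 TPM (median 3.32) in the libraries without TGF-b. Its group means ran from 5.01 ± 0.663 TPM in GFPneg IL-1b+IL-6+IL-23 cells (SD, n = 3) to 2.4 ± 0.672 TPM in GFPneg IL-12 cells (SD, n = 2), and neighbouring groups in that order overlapped. Set against GFPneg IL-1b+IL-6+IL-23 cells, GFPneg TGFb+IL-6 cells had a log2 change of -0.53 with a 95% interval of -1.28 to 0.23. TGFBR1, the type I receptor, was at 1.15 TPM in GFPpos TGFb+IL-6 cells and at 1.03 and 0.53 TPM in GFPneg TGFb+IL-6 cells. In the libraries without TGF-b it lay between 0 and 0.64 TPM with a median of 0.31 TPM. The highest pair of libraries had TGF-b, but the lowest library with TGF-b lay within the range of the others. TGFBR1 missed the filter, and with no filter (14937 genes) the F-test did not call it (adjusted p = 0.202).

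SMAD2 and SMAD3 are the Smads that the TGF-beta receptors phosphorylate. SMAD2 was at 3.56 TPM in GFPpos TGFb+IL-6 cells and at 2.09 and 1.5 TPM in GFPneg TGFb+IL-6 cells, against 1.42 to 3.9 TPM (median 2.5) without TGF-b. Its log2 change in GFPneg TGFb+IL-6 over GFPneg IL-1b+IL-6+IL-23 cells was -0.19 with a 95% interval of -0.8 to 0.41. No group stood apart in SMAD2.

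SMAD3 (GRCm38 chr9:63646767-63757994, minus strand, protein-coding) spanned the widest range of the signalling components. It was at 5.53 TPM in the GFPpos TGFb+IL-6 library and at 3.85 and 1.79 TPM in GFPneg TGFb+IL-6 cells. In IL-1b+IL-6+IL-23 cultures it was at 3.84, 3.37 and 3.44 TPM in GFPpos cells and at 0.49, 1.39 and 1.69 TPM in GFPneg cells. In IL-12+IL-21 cultures it was at 1.71, 1.24 and 2.17 TPM in GFPpos cells and at 0.59 and 1.01 TPM in GFPneg cells, and in GFPneg IL-12 cells at 0.15 and 0.59 TPM. Within each of the 3 sorted cultures every GFPpos library used was above every GFPneg library. Among GFPneg cells every TGFb+IL-6 library was above every other. How many of all genes show such orders was not counted. In TGFb+IL-6 cells the GFPpos side is 1 library. GFPpos TGFb+IL-6 replicate 2, which was left out, had 0.6 TPM of SMAD3, below both GFPneg libraries. From high to low, the group order was GFPpos TGFb+IL-6, GFPpos IL-1b+IL-6+IL-23, GFPneg TGFb+IL-6, GFPpos IL-12+IL-21, GFPneg IL-1b+IL-6+IL-23, GFPneg IL-12+IL-21 and GFPneg IL-12. Neighbours in this order overlapped or touched except at the top, where a single library lay above the next group.

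By limma on log2(TPM + 1), which understates changes of low genes, SMAD3 rose in GFPneg TGFb+IL-6 over GFPneg IL-12 cells by a log2 change of 1.44 ± 0.36 (SE, adjusted p = 0.0107). This comparison called 20.9% of all genes, 5.09% (488 genes) as higher and 15.8% (1512 genes) as lower, and among the 6 tested members it called SMAD3 and TGFBI. The SMAD3 call was lost without GFPneg TGFb+IL-6 replicate 1 (adjusted p = 0.107) or GFPneg IL-12 replicate 2 (adjusted p = 0.0862). SMAD3 missed the threshold in GFPneg TGFb+IL-6 over GFPneg IL-12+IL-21 cells (log2 change 1.04 ± 0.36, adjusted p = 0.102) and over GFPneg IL-1b+IL-6+IL-23 cells (0.79 ± 0.33, adjusted p = 0.117). In these 3 comparisons the median of all genes lay at -0.326, -0.211 and -0.233 on the log2 scale. With median-ratio scaling, which brings that median to about 0, SMAD3 passed over GFPneg IL-12+IL-21 (log2 change 1.26, adjusted p = 0.0294) and over GFPneg IL-1b+IL-6+IL-23 cells (1.01, adjusted p = 0.0334). The same scaling moved the split of all called genes from mostly lower to mostly higher, with 918 higher and 745 lower over IL-12, 405 and 365 over IL-12+IL-21, and 835 and 729 over GFPneg IL-1b+IL-6+IL-23 cells. With all 21 libraries the SMAD3 call over IL-12 was lost (0.96, adjusted p = 0.954).

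SMAD7, the inhibitory Smad that acts on the type I receptor, was at 1.62 TPM in GFPpos TGFb+IL-6 cells and at 0.89 and 0.59 TPM in GFPneg TGFb+IL-6 cells. The IL-1b+IL-6+IL-23 cultures had 0.62, 0.79 and 0.92 TPM in GFPpos cells and 1.13, 0.6 and 0.36 TPM in GFPneg cells, and the IL-12+IL-21 cultures 0.93, 0.94 and 0.81 TPM in GFPpos cells and 0.68 and 0.55 TPM in GFPneg cells. GFPneg IL-12 cells had 0.17 and 0 TPM, the lowest of the 7 groups, and both lay below all 14 other libraries. How many of all genes show this order was not counted. SMAD7 missed the filter. With no filter the F-test gave it an adjusted p of 0.0491, and GFPneg TGFb+IL-6 over GFPneg IL-12 cells gave an adjusted p of 0.0518 by limma.

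SKI and SKIL (also known as SnoN) are related proteins that repress Smad target genes, and SKIL is itself a known target of TGF-beta. SKI was at 7.75 TPM in GFPpos TGFb+IL-6 cells and at 4.8 and 3.57 TPM in GFPneg TGFb+IL-6 cells, against 3.85 to 11.4 TPM (median 5.94) without TGF-b, so the cultures overlapped. SKIL (chr3:31095058-31122577, plus strand, protein-coding) was at 23.7 TPM in GFPpos TGFb+IL-6 cells and at 20.9 and 24.4 TPM in GFPneg TGFb+IL-6 cells. It was at 11.4, 10.9 and 9.5 TPM in GFPpos IL-1b+IL-6+IL-23 cells, at 7.64, 12.9 and 12.1 TPM in GFPneg IL-1b+IL-6+IL-23 cells, at 14.4, 13.7 and 14.4 TPM in GFPpos IL-12+IL-21 cells, at 10.9 and 9.28 TPM in GFPneg IL-12+IL-21 cells and at 14 and 14 TPM in GFPneg IL-12 cells. Every used library with TGF-b was above every used library without it, whichever gate it came from. GFPpos TGFb+IL-6 replicate 2, which was left out, had 1.43 TPM of SKIL, below all used libraries without TGF-b. Over all tested genes, 2.88% had the 3 libraries with TGF-b above the other 13, and 5.55% had them below.

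SKIL rose in GFPneg TGFb+IL-6 over GFPneg IL-1b+IL-6+IL-23 cells by a log2 change of 1.02 ± 0.23 (limma, SE, adjusted p = 0.00706), with means of 22.7 ± 2.43 TPM (SD, n = 2) and 10.9 ± 2.84 TPM (SD, n = 3). It rose by 1.1 ± 0.25 over GFPneg IL-12+IL-21 cells (adjusted p = 0.0138), and by 1.09 ± 0.29 in GFPpos TGFb+IL-6 over GFPpos IL-1b+IL-6+IL-23 cells (adjusted p = 0.0395). Over GFPneg IL-12 cells it missed the threshold (0.65 ± 0.25, adjusted p = 0.0797) and passed with median-ratio scaling (1.08, adjusted p = 0.016). The first of these comparisons called 15.4% of all genes, 4.83% as higher and 10.6% as lower. The second called 6.82%, 2.01% as higher and 4.81% as lower, and the third 5.39%, 3.02% (290 genes) as higher and 2.37% (227 genes) as lower, or 294 and 342 genes with median-ratio scaling. Each called SKIL and TGFBI among the 6 members, and the 3 comparisons of GFPneg cells share the TGFb+IL-6 libraries. SKIL's call over GFPneg IL-1b+IL-6+IL-23 cells was lost without GFPneg TGFb+IL-6 replicate 2 (adjusted p = 0.0879). The call over GFPneg IL-12+IL-21 cells was lost without that library (adjusted p = 0.131) or without GFPneg IL-12+IL-21 replicate 1 (0.0583) or replicate 2 (0.0955). In GFPpos cells, where the group with TGF-b is a single library assumed to vary like the others, it was lost without any of the 3 IL-1b+IL-6+IL-23 libraries (adjusted p = 0.0634 to 0.0954) and with median-ratio scaling (0.98, adjusted p = 0.0871). The log2 change itself stayed between 0.98 and 1.14 in these settings of the GFPpos comparison. With all 21 libraries all 3 SKIL calls were lost, and the sign turned over GFPneg IL-1b+IL-6+IL-23 (-0.5, adjusted p = 0.778) and in GFPpos cells (-1.56, adjusted p = 0.421).

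**Figure D2:**
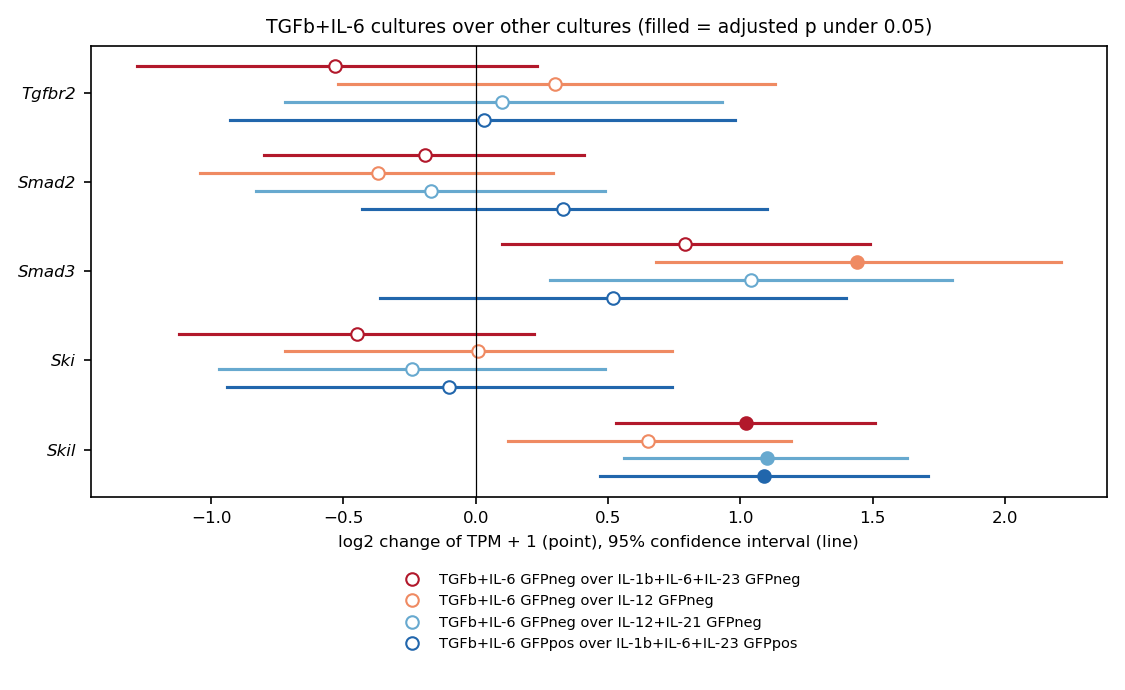
Log2 change of TPM + 1 with its 95% confidence interval for 5 tested genes in TGFb+IL-6 cells over 4 other groups; filled points passed an adjusted p of 0.05 and the vertical line marks no change. SKIL lies between 0.65 and 1.1 in all 4 comparisons, SMAD3 between 0.52 and 1.44, and the intervals of TGFBR2, SMAD2 and SKI all include 0.

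TGFBI encodes a secreted matrix protein induced by TGF-beta, from which it takes its name, and ITGAE encodes the integrin alpha E chain (CD103), which TGF-beta is known to induce in T cells. TGFBI lies on chr13:56609523-56639562, plus strand. TGFBI and SMAD3 were both called higher in GFPneg TGFb+IL-6 over GFPneg IL-12 cells, SMAD3 in no other culture comparison of the 16-library test. For that reason the 300 bases around the start sites of TGFBI (chr13:56609336-56609635, plus strand) and SMAD3 (chr9:63757945-63758244, minus strand) are printed. They run from 250 bases before to 50 after the start and come from RefSeq on GRCm38.p6, with CAGAC or its reverse complement GTCTG, a core Smad-binding sequence, in capitals.
TGFBI: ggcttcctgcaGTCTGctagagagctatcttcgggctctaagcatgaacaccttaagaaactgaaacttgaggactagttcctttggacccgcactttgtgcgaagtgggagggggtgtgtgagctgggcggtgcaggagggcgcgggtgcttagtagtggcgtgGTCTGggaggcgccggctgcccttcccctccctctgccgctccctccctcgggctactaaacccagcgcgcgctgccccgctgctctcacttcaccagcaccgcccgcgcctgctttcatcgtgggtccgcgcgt
SMAD3: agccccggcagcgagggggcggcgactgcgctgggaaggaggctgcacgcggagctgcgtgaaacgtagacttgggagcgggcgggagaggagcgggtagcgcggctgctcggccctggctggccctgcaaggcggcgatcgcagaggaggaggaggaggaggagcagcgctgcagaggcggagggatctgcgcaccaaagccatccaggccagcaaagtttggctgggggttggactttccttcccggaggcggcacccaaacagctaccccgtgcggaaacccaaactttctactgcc
The TGFBI window holds GTCTG at -239 and -85 from the start and the SMAD3 window holds neither form. Of 32851 promoter windows of the same length, 49.6% held at least 1 such match on either strand and 16.2% held at least 2. Promoter windows were searched for 6 of the 10 genes, 7 windows in all. Those of SMAD2, SMAD7, SKIL and ITGAE were not searched, so nothing is said of their promoters. A single CAGAC was found in the TGFBR2 window and in 1 of the 2 TGFBR1 windows, and none in those of SKI and TGFB1. The palindrome GTCTAGAC, present in 0.213% of windows, and the AP-1 sequence TGACTCA with its reverse complement TGAGTCA, present in 5.2%, were in none of the 7.

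TGFBI was at 35.8 TPM in the GFPpos TGFb+IL-6 library and at 9.87 and 7.58 TPM in GFPneg TGFb+IL-6 cells. In the other cultures it was at 0, 0.12 and 0.13 TPM in GFPpos IL-1b+IL-6+IL-23 cells, at 0, 0 and 0.25 TPM in GFPneg IL-1b+IL-6+IL-23 cells and at 0, 0 and 0.23 TPM in GFPpos IL-12+IL-21 cells. It was listed at 0 in both GFPneg IL-12+IL-21 libraries and in both GFPneg IL-12 libraries. No library without added TGF-b came near the 3 with it. TGFBI passed the filter through the TGFb+IL-6 libraries alone, so a difference was built into its being tested. In bulk RNA, fewer expressing cells and less RNA per cell cannot be told apart.

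In GFPneg TGFb+IL-6 over GFPneg IL-1b+IL-6+IL-23 cells the log2 change of TGFBI was 3.16 ± 0.25 (limma, SE, adjusted p = 3.83e-07), with means of 8.72 ± 1.62 TPM (SD, n = 2) and 0.0833 ± 0.144 TPM (SD, n = 3). In GFPpos TGFb+IL-6 over GFPpos IL-1b+IL-6+IL-23 cells it was 5.09 ± 0.31 (adjusted p = 8.47e-08). Against GFPneg IL-12 and GFPneg IL-12+IL-21 cells, where TGFBI is listed at 0, no fold is given, and the adjusted p was 5.87e-07 and 9.36e-07. Over the same genes, TGFBI was called in all of these 4 comparisons whichever library was left out, apart from the single GFPpos TGFb+IL-6 library, without which the GFPpos comparison has no value. Those fits kept the genes of the full test, which TGFBI had entered through the TGFb+IL-6 libraries alone. With the filter applied anew, TGFBI was not tested once a TGFb+IL-6 library was left out. With all 21 libraries the 4 TGFBI calls were lost. The log2 changes were then 2.07 (limma, adjusted p = 0.306) and 2.37 (0.0929) over GFPneg and GFPpos IL-1b+IL-6+IL-23 cells. The adjusted p was 0.327 over IL-12 and 0.32 over IL-12+IL-21.

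ITGAE was listed at 0 in all 3 TGFb+IL-6 libraries and in 12 of the 13 others. The exception, a GFPpos IL-12+IL-21 library, had 0.08 TPM. ITGAE was thus at or near 0 with and without added TGF-b, and an exact 0 in a TPM table can also be a failed estimate.

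Between reporter-positive and reporter-negative cells, 1 of the 6 tested members passed the threshold in 1 of the 3 cultures. In TGFb+IL-6 cells, GFPpos over GFPneg called 0.323% of all genes and 1 of the 6 tested members, TGFBI, with 35.8 TPM in the GFPpos library against 9.87 and 7.58 TPM in GFPneg cells (log2 change 1.93 ± 0.33, limma, adjusted p = 0.0314). The call was lost without either GFPneg library (adjusted p = 0.0642 without replicate 1 and 0.129 without replicate 2) and with median-ratio scaling (1.48, adjusted p = 0.0546). A second GFPpos TGFb+IL-6 library, left out with 5608 genes at a TPM of at least 1, had 3.77 TPM, below both GFPneg libraries. The GFP effect on TGFBI in TGFb+IL-6 cells minus that in IL-1b+IL-6+IL-23 cells was 1.92 ± 0.40 (adjusted p = 0.108), and minus that in IL-12+IL-21 cells 1.83 ± 0.41 (adjusted p = 0.666), so neither difference between cultures passed. These tests called 0.0834% and 0.0104% of all genes and none of the members by limma, with 1 member, TGFBI, at an unadjusted p under 0.05 (0.000202 and 0.000456) in each.

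In IL-1b+IL-6+IL-23 cells, GFPpos over GFPneg called 0.427% of genes and none of the 6 members by limma, with 1 at an unadjusted p under 0.05. That member was SMAD3, at 3.55 ± 0.254 TPM in GFPpos and 1.19 ± 0.624 TPM in GFPneg cells (SD, n = 3 each), a log2 change of 1.1 ± 0.29 (adjusted p = 0.19). In IL-12+IL-21 cells the same comparison called 0.156% of genes and none of the members, with 0 at an unadjusted p under 0.05. SMAD3 averaged 1.71 ± 0.465 TPM in GFPpos (SD, n = 3) and 0.8 ± 0.297 TPM in GFPneg cells (SD, n = 2), a log2 change of 0.58 ± 0.33 (adjusted p = 0.423). In TGFb+IL-6 cells the log2 change of SMAD3 was 0.83 ± 0.44 (adjusted p = 0.345). The 3 estimates have the same sign, none passed, and the median of all genes also lay above 0 in these comparisons, at 0.368 for TGFb+IL-6, 0.244 for IL-12+IL-21 and 0.074 for IL-1b+IL-6+IL-23 cells. The SMAD3 effect of the last culture minus that of IL-12+IL-21 was 0.51 ± 0.44 (adjusted p = 0.992), in a test that called 0% of genes by limma, with 474 at an unadjusted p under 0.05.

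**Figure D3:**
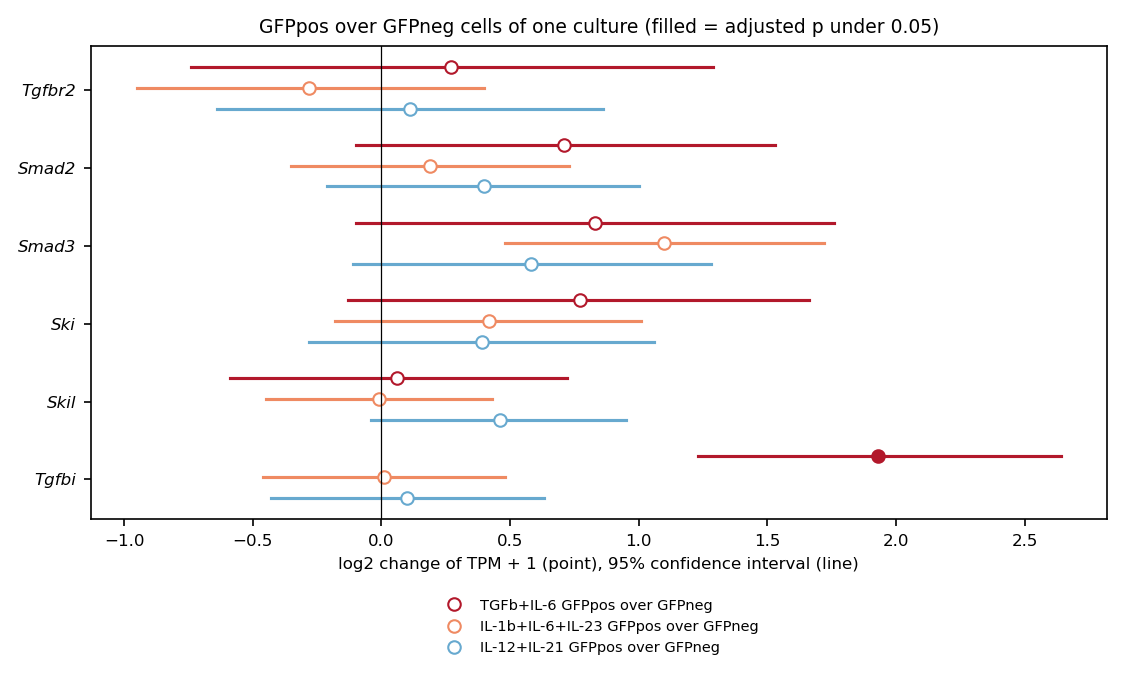
Log2 change of TPM + 1 with its 95% confidence interval for the 6 tested genes in GFPpos over GFPneg cells of 3 cultures; the filled point passed an adjusted p of 0.05 and the vertical line marks no change. SMAD3 lies at 0.58 to 1.1 in the 3 cultures, SKIL at -0.01 to 0.46, and TGFBI is at 1.93 in TGFb+IL-6 cells.

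Between cultures that received no TGF-b, none of the 6 members was called. IL-1b+IL-6+IL-23 over IL-12+IL-21 called 4.96% of genes in GFPpos cells and 3.41% in GFPneg cells, and IL-12+IL-21 over IL-12 in GFPneg cells called 0.761%. Of the members, 1, 0 and 0 had an unadjusted p under 0.05 in these comparisons by limma. The 1 was SMAD3 in GFPpos cells, at 3.55 ± 0.254 TPM in IL-1b+IL-6+IL-23 and 1.71 ± 0.465 TPM in IL-12+IL-21 cultures (SD, n = 3 each), a log2 change of 0.76 ± 0.29 (adjusted p = 0.183). It passed with quantile scaling (0.95, adjusted p = 0.0366). For SKIL the change there was -0.39 with a 95% interval of -0.83 to 0.05.

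Other genes of the pathway were grouped in 6 lists, and up to 4 tested genes of each are named by the smallest F-test p. Ligands and latency genes make or release TGF-beta family ligands. Of 12, 5 were tested and 3 were called among the 7 groups, INHBA, FURIN and LRRC32, beside 24.9% of all genes. INHBA, the activin A subunit gene, was at 35.2 and 32.3 TPM in GFPneg TGFb+IL-6 cells, against 272, 198 and 357 TPM in GFPneg IL-1b+IL-6+IL-23 cells (log2 change -2.95 ± 0.39, limma, adjusted p = 7.75e-05). INHBA was called lower against GFPneg IL-12+IL-21 cells (72.5 and 180 TPM), but not without GFPneg IL-12+IL-21 replicate 1 or either GFPneg TGFb+IL-6 replicate. INHBA was at 56.4 and 64.5 TPM in GFPneg IL-12 cells, which also received no TGF-b, and was not called against them. It was at 48.6 TPM in GFPpos TGFb+IL-6 cells, against 193, 157 and 322 TPM in GFPpos IL-1b+IL-6+IL-23 cells (-2.12 ± 0.50, adjusted p = 0.0186, and 0.0522 without GFPpos IL-1b+IL-6+IL-23 replicate 3). FURIN, a protease that cleaves the TGF-beta precursor, was at 49 and 27.2 TPM in GFPneg TGFb+IL-6 cells and at 110 and 106 TPM in GFPneg IL-12 cells (-1.54 ± 0.33, adjusted p = 0.00453, and 0.0798 without GFPneg TGFb+IL-6 replicate 2). In GFPneg IL-1b+IL-6+IL-23 cells, which received no TGF-b, FURIN was at 49.7, 35.2 and 39.7 TPM, and the log2 change over them was -0.17 with a 95% interval of -0.81 to 0.48 (adjusted p = 0.761). LRRC32, which encodes GARP and displays latent TGF-beta on the cell surface, was at 0.41 TPM in GFPpos TGFb+IL-6 cells and at 2.74, 3.37 and 3.93 TPM in GFPpos IL-1b+IL-6+IL-23 cells (-1.62 ± 0.37, adjusted p = 0.0167, and 0.0508 without GFPpos IL-1b+IL-6+IL-23 replicate 3). In GFPneg TGFb+IL-6 cells LRRC32 was at 0.81 to 0.94 TPM, within the 0.4 to 1.2 TPM of GFPneg IL-12 cells. GFPneg IL-12+IL-21 cells had 0.57 to 0.96 TPM of LRRC32, and its highest levels were in IL-1b+IL-6+IL-23 cells. LRRC32 was not called in the comparisons of GFPneg TGFb+IL-6 cells with other cultures. In none of the 4 comparisons of TGFb+IL-6 with another culture was any of the 5 tested genes called higher. These comparisons called 2.01% to 5.09% of all genes as higher, so little can be read from 5 genes. TGFB3, a ligand gene below the filter and named after its values were seen, was at 1.39 TPM in GFPpos TGFb+IL-6 cells and at 0.95 and 0.39 TPM in GFPneg TGFb+IL-6 cells, against 0 to 0.19 TPM in the other 13 libraries. TGFB2, another ligand gene below the filter, went the other way. It was at 0 in all 3 TGFb+IL-6 libraries and at 0.06 to 0.95 TPM in the other 13. Over the tested genes, which hold neither, 2.88% had the libraries with TGF-b above all others and 5.55% below. In GFPneg TGFb+IL-6 over GFPneg IL-1b+IL-6+IL-23 cells the list's median change was -0.77, against -0.23 for all genes.

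Of 9 receptors and co-receptors, 2 were tested and 1 was called among the groups, TGFBR3 (betaglycan, a co-receptor, F-test adjusted p = 0.016). The F-test called 24.9% of all genes. TGFBR3 is described next. It was at 1.18 TPM in GFPpos TGFb+IL-6 cells and at 1.68 and 0.57 TPM in GFPneg TGFb+IL-6 cells, within the range of the others, and its lowest levels were in IL-1b+IL-6+IL-23 cells, at 0.24, 0.21 and 0.22 TPM in GFPpos and 0.14, 0.29 and 0.79 TPM in GFPneg cells. Of 10 signal transducers and Smad cofactors, 5 were tested and 0 called by the F-test, with 1 at an unadjusted p under 0.05, MAP3K7 (the kinase TAK1, adjusted p = 0.0807). SMAD4, the common partner of SMAD2 and SMAD3, had an adjusted p of 0.444.

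Of 11 genes listed as negative regulators, 9 were tested and 2 were called among the groups, FKBP1A and PMEPA1, a share of 22.2% beside 24.9% of all genes. FKBP1A (FKBP12), which binds the type I receptor and restrains it, was at 1160 TPM in GFPpos TGFb+IL-6 cells and at 1068 and 1107 TPM in GFPneg TGFb+IL-6 cells. The other groups had 402, 440 and 509 TPM in GFPpos IL-1b+IL-6+IL-23, 510, 527 and 555 TPM in GFPneg IL-1b+IL-6+IL-23, 580, 524 and 615 TPM in GFPpos IL-12+IL-21, 621 and 573 TPM in GFPneg IL-12+IL-21 and 604 and 636 TPM in GFPneg IL-12 cells. The 2 sets of libraries did not overlap. Among all tested genes, 2.88% had the libraries with TGF-b above all others and 5.55% had them below. FKBP1A rose in GFPneg TGFb+IL-6 cells by 1.03 ± 0.13 over GFPneg IL-1b+IL-6+IL-23 (adjusted p = 5.05e-05), by 0.81 ± 0.14 over GFPneg IL-12 (0.00105) and by 0.86 ± 0.14 over GFPneg IL-12+IL-21 cells (0.00105), and by 1.37 ± 0.17 in GFPpos cells over IL-1b+IL-6+IL-23 (8.12e-05, all by limma).

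PMEPA1, a membrane protein that keeps SMAD2 and SMAD3 from the receptor and is induced by TGF-beta, was at 11.8 TPM in GFPpos TGFb+IL-6 cells and at 10.4 and 6.18 TPM in GFPneg TGFb+IL-6 cells. It was at 2.75, 3.1 and 2.31 TPM in GFPpos IL-1b+IL-6+IL-23, 3.13, 3.42 and 3.61 TPM in GFPneg IL-1b+IL-6+IL-23, 6.51, 2.93 and 6.97 TPM in GFPpos IL-12+IL-21, 2.86 and 3.61 TPM in GFPneg IL-12+IL-21 and 2.51 and 2.67 TPM in GFPneg IL-12 cells. The lowest library with TGF-b lay below 2 of the GFPpos IL-12+IL-21 libraries and above all others without it. PMEPA1 rose in GFPpos TGFb+IL-6 over GFPpos IL-1b+IL-6+IL-23 cells by 1.79 ± 0.40 (limma, adjusted p = 0.0134). In GFPneg cells the change was 1.04 ± 0.31 over IL-1b+IL-6+IL-23 (adjusted p = 0.035), lost without GFPneg TGFb+IL-6 replicate 1 (0.265) or any of the 3 IL-1b+IL-6+IL-23 libraries (0.0627 to 0.0853), and 1.33 ± 0.34 over IL-12 (0.0135), lost without GFPneg TGFb+IL-6 replicate 1 (0.118) or GFPneg IL-12 replicate 2 (0.0656) or 3 (0.0557). USP15, a deubiquitinase that removes ubiquitin from the type I receptor and is known to promote TGF-beta signalling, unlike the list's name, fell in GFPneg TGFb+IL-6 over GFPneg IL-12 cells, with 3.44 and 2.86 TPM against 8.28 and 7.63 TPM (-1.11 ± 0.29, adjusted p = 0.0134), lost without GFPneg IL-12 replicate 2 (0.0715) or 3 (0.0507) or GFPneg TGFb+IL-6 replicate 2 (0.0944). LDLRAD4, a relative of PMEPA1, was not called by the F-test (adjusted p = 0.0831), with 4.06 TPM in GFPpos TGFb+IL-6 and 1.97 and 3.28 TPM in GFPneg TGFb+IL-6 cells, against 0.38 to 2.21 TPM elsewhere.

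**Figure D4:**
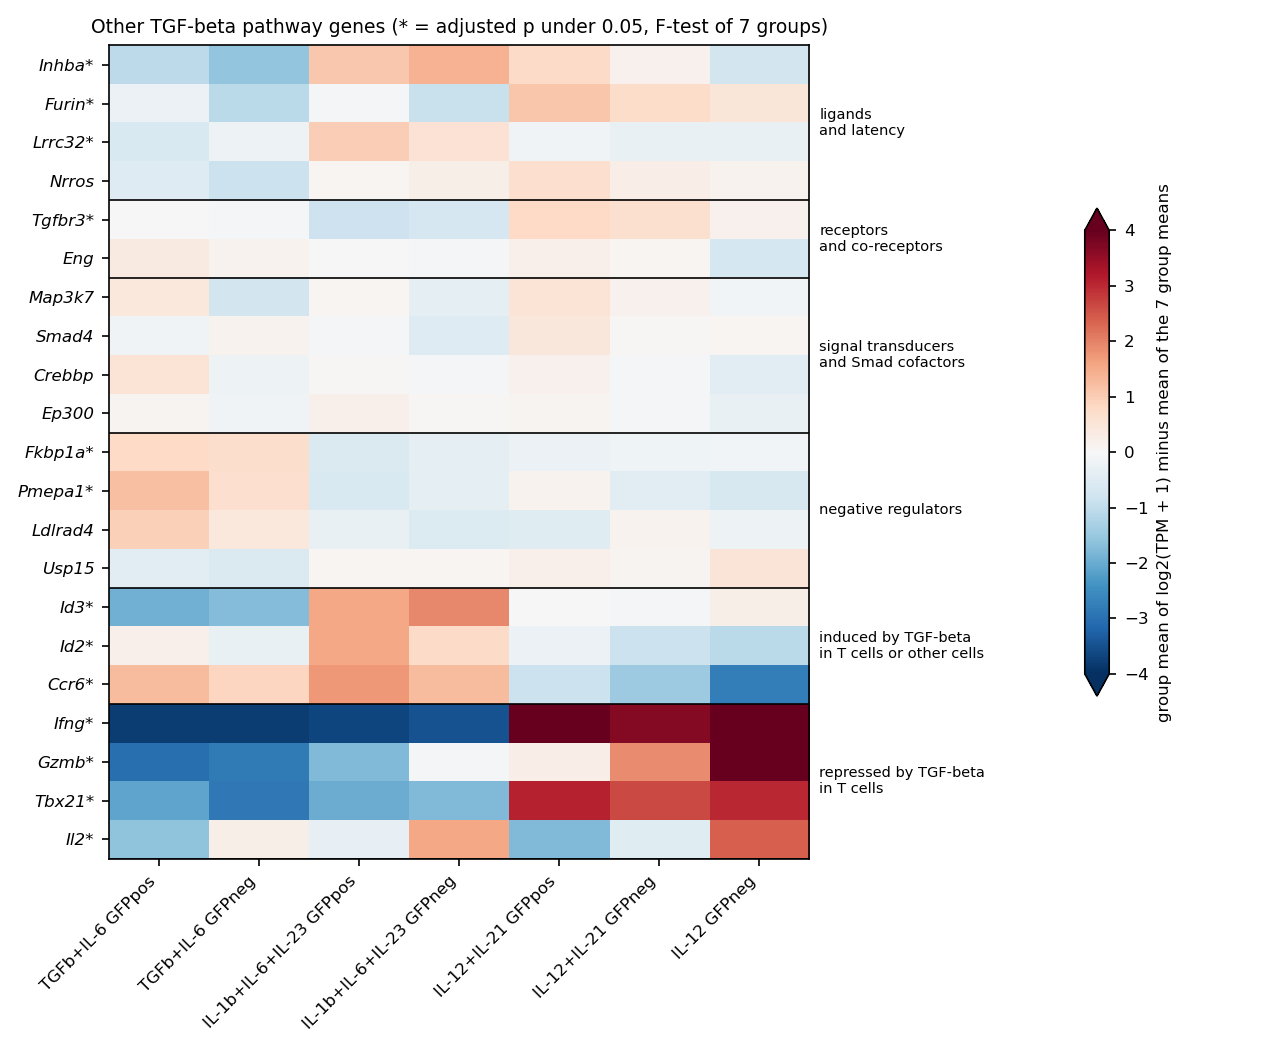
Group mean of log2(TPM + 1) minus the mean of the 7 group means (colour, log2 scale) for up to 4 tested genes of each pathway list, those with the smallest F-test p; stars mark an F-test adjusted p under 0.05. FKBP1A and PMEPA1 are above 0 in both TGFb+IL-6 columns, INHBA and ID3 are below 0 in both, and CCR6 is above 0 in the TGFb+IL-6 and IL-1b+IL-6+IL-23 columns.

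Of 14 genes known to be induced by TGF-beta in T cells or other cells, 11 were tested and 9 were called among the groups, beside 24.9% of all genes. They did not move as a block: in GFPneg TGFb+IL-6 over GFPneg IL-1b+IL-6+IL-23 cells 1 was higher and 4 were lower, over GFPneg IL-12 cells 5 were higher and 3 lower, and over GFPneg IL-12+IL-21 cells 2 were higher and 2 lower. Of all genes, 4.83% were higher and 10.6% lower in the first of these comparisons, 5.09% and 15.8% in the second, and 2.01% and 4.81% in the third. The list's median changes were -0.31, 0.58 and 0.26, against -0.23, -0.33 and -0.21 for all genes. With median-ratio scaling the counts were 3 higher and 4 lower, 5 and 2, and 4 and 1. ID3, an inhibitor of E proteins, fell to 11.6 TPM in GFPpos TGFb+IL-6 cells and 13.8 and 12.7 TPM in GFPneg TGFb+IL-6 cells. It was at 139, 156 and 118 TPM in GFPpos IL-1b+IL-6+IL-23, 236, 190 and 131 TPM in GFPneg IL-1b+IL-6+IL-23 and 43.1 to 60.2 TPM in the 7 libraries with IL-12. The log2 change of ID3 was -3.67 ± 0.22 in GFPneg TGFb+IL-6 over GFPneg IL-1b+IL-6+IL-23 cells (limma, adjusted p = 2.57e-08) and -1.67 ± 0.24 over GFPneg IL-12+IL-21 cells (3e-04). ID2, its close relative, was at 163 TPM in GFPpos TGFb+IL-6 and 101 and 135 TPM in GFPneg TGFb+IL-6 cells, against 401, 421 and 431 TPM in GFPpos IL-1b+IL-6+IL-23 and 231, 268 and 228 TPM in GFPneg IL-1b+IL-6+IL-23 cells (-1.04 ± 0.16 in GFPneg cells, adjusted p = 0.000408). ID2 was at 73.4 and 61.1 TPM in GFPneg IL-12 cells, over which it rose in GFPneg TGFb+IL-6 cells (0.8 ± 0.18, adjusted p = 0.00599), a call lost without GFPneg IL-12 replicate 3 (0.066) or GFPneg TGFb+IL-6 replicate 2 (0.0955). ID2 and ID3 were thus lower in TGFb+IL-6 than in IL-1b+IL-6+IL-23 cells, 2 cultures that differ in IL-1b and IL-23 as well as in TGF-b.

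CCR6, a chemokine receptor of Th17 cells, rose in GFPneg TGFb+IL-6 over GFPneg IL-12 cells by 3.61 ± 0.32 (limma, adjusted p = 1.13e-06). It was at 30.3 and 24.6 TPM in GFPneg TGFb+IL-6 cells, against 2.13 and 0.71 TPM in GFPneg IL-12 cells, and at 33.3, 29.2 and 49.8 TPM in the GFPneg IL-1b+IL-6+IL-23 cells, which received no TGF-b. The 3 markers of regulatory T cells summed to 222 to 290 TPM with TGF-b and 165 to 384 TPM without. IL2RA, with group means of 188 to 325 TPM, made up nearly all of the sum. FOXP3 was at most 2.2 TPM and IKZF2 at most 0.43 TPM in any library used.

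Of 8 genes known to be repressed by TGF-beta in T cells, 5 were tested and all 5 were called among the groups, IFNG, GZMB, TBX21, IL2 and GATA3 (GATA3 falls outside the naming rule and was named after its values were seen). The F-test called 24.9% of all genes. In GFPneg TGFb+IL-6 over GFPneg IL-12 cells all 5 fell, with a list median of -5.89 against -0.33 for all genes. That comparison called 15.8% of all genes as lower. The call of IL2, the T cell growth factor, was lost there without GFPneg IL-12 replicate 3 (adjusted p = 0.0591) or GFPneg TGFb+IL-6 replicate 2 (0.0913). IFNG, the Th1 cytokine, was listed at 0 in all 3 TGFb+IL-6 libraries, against 1121 and 1474 TPM in GFPneg IL-12 cells, and was at 0 to 0.9 TPM in the 6 libraries of IL-1b+IL-6+IL-23 cultures. Over GFPneg IL-1b+IL-6+IL-23 cells 2 of the 5 fell, beside 10.6% of all genes. One was GZMB, the cytotoxic granule protease granzyme B, with 0.31 and 0 TPM in GFPneg TGFb+IL-6 cells against 5.91, 6.95 and 7.48 TPM in GFPneg IL-1b+IL-6+IL-23 cells (-2.76 ± 0.39, limma, adjusted p = 0.000147). The 3 Th1 markers, IFNG, TBX21 and the chemokine receptor gene CXCR3, summed to 1.22 to 8.12 TPM with TGF-b and 16 to 1562 TPM without. In IL-1b+IL-6+IL-23 libraries IFNG was at most 0.9 TPM and TBX21 at most 3.38 TPM, and CXCR3 at 15.3 to 28.9 TPM made up most of the sum. IL-12 is known to drive IFNG and TBX21, so in the comparisons with IL-12 the absence of IL-12 and the presence of TGF-b cannot be told apart.

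The patterns most like those of TGFBI and SMAD3, the members whose group means spanned at least 2 on the log2 scale, were sought by Pearson correlation over the 16 libraries among 9066 tested genes, as a description without a test, since libraries of a group share their culture. For TGFBI they were GJA5 (r = 0.99), a gap junction protein, SERPINB1A (r = 0.972), a serine protease inhibitor, and MYO3B (r = 0.971), a myosin. SERPINB1A was at 16 TPM in GFPpos TGFb+IL-6 cells and averaged 9.62 ± 4.00 TPM in GFPneg TGFb+IL-6 cells (SD, n = 2), against 0 to 0.84 TPM in GFPneg IL-12 cells and 0 in the other groups. GJA5 was at 3.29 TPM in GFPpos TGFb+IL-6 and 1.2 ± 0.29 TPM in GFPneg TGFb+IL-6 cells (SD, n = 2), against at most 0.14 TPM elsewhere. For SMAD3 they were GNG2 (r = 0.933), a G protein gamma subunit, MGST3 (r = 0.904), a glutathione transferase, and BNIP3 (r = 0.876), a mitochondrial protein of autophagy. GNG2 was at 22.6 TPM in GFPpos TGFb+IL-6 and 12 ± 1.90 TPM in GFPneg TGFb+IL-6 cells (SD, n = 2), 12.7 ± 1.22 TPM in GFPpos and 7.87 ± 2.02 TPM in GFPneg cells from the IL-1b+IL-6+IL-23 cultures (SD, n = 3 each), and 4.09 ± 0.693 TPM in GFPneg IL-12 cells (SD, n = 2). The nearest genes of TGFBI reached 1 TPM in the TGFb+IL-6 libraries alone. They were picked for following TGFBI, so their low levels without added TGF-b were built into the choice. Those of SMAD3, picked in the same way, were graded across cultures and gates.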

How the data were processed

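RNA from sorted CD4 T cells was sequenced from full-length cDNA by a modified SMART-Seq2 protocol, per the labels' protocols. The authors deposited TPM per gene and library; Trimmomatic 0.32, Bowtie2 2.2.9, RSEM 1.2.31 and GRCm38 are named in the submitters' processing notes, and their settings, the annotation and strand use are not given in the sources used here. No counts were used, so depth is unknown, and 0 columns had no sample. Of 21 libraries, 16 with at least 7000 genes at a TPM of at least 1 entered. Genes that reached 1 TPM in 3 or more libraries were tested on log2(TPM + 1) with limma 3.58.1 in R 4.3.3, in 1 fit of all 7 groups, with Benjamini-Hochberg adjustment over all tested genes and a threshold of 0.05. The script was tested on simulated data. The labels do not say that replicates are separate animals or cultures, so p-values measure only how these samples vary among themselves, which can be technical variation. The members and lists were chosen with earlier results of these data known. Named genes are the 10 members, up to 4 tested genes of each list with the smallest F-test p, and the 3 genes most correlated with each member whose group means span at least 2 on the log2 scale. A gene that the rule would name is not reported here. Alternatives changed the pseudocount, filter, scaling, libraries, replicate block and groups fitted. Positions are from GENCODE M21 on GRCm38.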

Additional observations from a re-analysis of the deposited data

Results flagged for a closer look

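A GFPpos TGFb+IL-6 library that was left out for its few detected genes held TGFBI and TGFBR1 above the used libraries without added TGF-b. GFPpos TGFb+IL-6 replicate 2 had 3.77 TPM of TGFBI, against at most 0.25 TPM in the 13 libraries without TGF-b, and 1.01 TPM of TGFBR1, against at most 0.64 TPM. In the same library SKIL (1.43 TPM), SKI (1.18 TPM), TGFBR2 (0.64 TPM) and SMAD2 (0.31 TPM) lay below all 13. Ribosomal protein genes took 58.9% of its TPM.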

How the results depend on the processing

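The members called by limma depended most on which libraries were used. With all 21 libraries, the number of members called was 1 for any difference among the 7 groups (3 with 16 libraries) and 0 for GFPneg TGFb+IL-6 over IL-1b+IL-6+IL-23, IL-12 or GFPneg IL-12+IL-21 cells and for GFPpos TGFb+IL-6 over GFPpos IL-1b+IL-6+IL-23 cells (2 in each), and 0 for GFPpos over GFPneg in TGFb+IL-6 cells (1). SKIL then turned to -0.5 over GFPneg IL-1b+IL-6+IL-23 (adjusted p = 0.778) and -1.56 in GFPpos cells (adjusted p = 0.421). With only the compared groups in the fit, 1, 0, 1 and 1 members were called in those 4 comparisons, since TGFBI, and SMAD3 over IL-12, then fell below the filter. A minimum of 5 TPM left 1 over IL-12 and 0 for GFP in TGFb+IL-6 cells. Median-ratio scaling left 1 for GFPpos TGFb+IL-6 over GFPpos IL-1b+IL-6+IL-23 and 0 for GFP in TGFb+IL-6 cells. Quantile scaling left 1 for that GFPpos culture comparison and gave 1 for GFPpos IL-1b+IL-6+IL-23 over GFPpos IL-12+IL-21 (0 in the 16-library test). A pseudocount of 0.1 left 0 for GFP in TGFb+IL-6 cells. Leaving out a replicate, the members called ranged from 1 to 3 for any difference, 0 to 2 over GFPneg IL-1b+IL-6+IL-23, 0 to 2 over IL-12, 0 to 1 over IL-12+IL-21, 1 to 1 in the GFPpos culture comparison and 0 to 0 in all GFP and non-TGF-b comparisons. In these fits TGFBI falls below the filter when a TGFb+IL-6 library is left out. With the genes of the full test kept, an alternative chosen after seeing the data, the ranges were 2 to 3, 1 to 2, 1 to 2, 1 to 2, 1 to 1 and 0 to 0. The replicate block called the same number of members in every comparison, and same-numbered libraries of different groups correlated at -0.086 to 0.265 (median 0.043, 8 of 31 pairs over 0.1), against a median of -0.027 for different numbers (2 of 62 over 0.1). Of 15 libraries, 13 correlated best with their own number, so same-numbered libraries share structure, whose source the labels do not give. The main tests leave it out, those of GFPpos over GFPneg cells included, and treat the libraries as unpaired. Not every pair was over 0.1, but that does not exclude a pairing. The block called 135 genes for IL-12+IL-21 over IL-12 (73 without it) and 23 for GFP in IL-12+IL-21 cells (15). Depth is unknown, so levels under 1 TPM are of unknown precision.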

Other observations

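In the 5 libraries that were left out, which had 190 to 5608 genes at a TPM of at least 1, most members were listed at 0. GFPpos TGFb+IL-6 replicate 2 had 1.43 TPM of SKIL, 1.18 TPM of SKI, 0.6 TPM of SMAD3 and 0.64 TPM of TGFBR2. GFPneg IL-12 replicate 1 had 1.13 TPM of SKI, 0.12 TPM of TGFBR1 and 0.1 TPM of SKIL, with the other 7 members at 0. The other 3 listed all 10 members at 0.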
